A study of Mus musculus with 15 samples.

Results

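The miRNA content of liver was described in the mice fed the standard diet (SD), without setting them against the other diets. All arrays titled as ad libitum controls were taken, which gave 5 of the 15 arrays of the series. The study placed male B6C57/J mice at 1 year of age on 1 of 3 diets for life, to ask how caloric restriction and metformin act on the aging liver. SD mice had free access to AIN-93G chow with no metformin and no restriction of food. Each of the 5 SD arrays carried the liver RNA of a different mouse, and the 5 arrays lay on 1 slide. The sources used here give no age at tissue collection for the individual animals, so age within the group was not analysed.

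A miRNA is a short RNA cut from a hairpin precursor, first by Drosha in the nucleus and then by Dicer in the cytoplasm. Either arm of the hairpin, the 5p or the 3p, can be loaded into an Argonaute protein, where the bases near the 5′ end (the seed) pair with target mRNAs and lower their translation or stability. Members of a family share a seed, and many family members are transcribed together from clusters. In liver, miR-122 is the classical hepatocyte miRNA and acts in cholesterol and lipid metabolism, while miR-192 and miR-194 are driven by hepatic nuclear factors and miR-29 lowers collagen transcripts.

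The total RNA of each liver carried a single dye, Cy3, and was read on an Agilent array of probes for mouse miRNAs. Each array held 13920 spots for 696 mouse miRNA entries, with 20 spots per entry spread over 1 to 4 different probes. The value used throughout is the software's total gene signal of an entry, a background-subtracted brightness in arbitrary units. The software also decides for each entry and array whether the miRNA was detected, and it lists an undetected entry at a floor of 0.100. The lowest signal of a detected entry was 3.79 in mouse 1, 7.01 in mouse 2, 3.75 in mouse 3, 5.22 in mouse 4 and 5.35 in mouse 5. Probes differ in affinity and RNAs in labeling, so the order of entries is an order of signals and not of molecules. No miRNA spot was saturated on any of the 5 arrays, so the highest signals were not capped by the scanner.

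Of the 696 names, 542 matched a mature miRNA of RefSeq (GRCm38.p6), among them 17 of the 20 highest entries without a release suffix. A release suffix such as _v16.0 ties an entry to an earlier miRBase release, and 28 of the 696 entries carried one. The sequences below are written 5′ to 3′, with the seed (bases 2 to 8) in capitals. The first set shows the let-7 family, which had the highest summed signal of any seed matched here, and all 9 members share the seed GAGGUAG.
let-7a-5p: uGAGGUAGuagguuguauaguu
let-7f-5p: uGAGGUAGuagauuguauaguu
let-7c-5p: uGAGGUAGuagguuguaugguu
let-7b-5p: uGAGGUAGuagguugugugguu
let-7g-5p: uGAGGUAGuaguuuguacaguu
let-7d-5p: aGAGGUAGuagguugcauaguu
let-7i-5p: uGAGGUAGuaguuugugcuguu
let-7e-5p: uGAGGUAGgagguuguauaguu
miR-98-5p: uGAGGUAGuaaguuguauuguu
The next set gives the other matched miRNAs among the 20 highest without a release suffix. Further members with the seeds of miR-29, miR-26 and miR-30 are placed next to them. AGCACCA is shared by the miR-29 members, UCAAGUA by the miR-26 members and GUAAACA by the miR-30 members.
miR-29a-3p: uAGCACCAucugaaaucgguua
miR-29c-3p: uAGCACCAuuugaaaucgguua
miR-29b-3p: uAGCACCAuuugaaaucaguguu
miR-26a-5p: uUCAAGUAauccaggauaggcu
miR-26b-5p: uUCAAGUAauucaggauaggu
miR-30a-5p: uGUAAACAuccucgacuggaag
miR-30c-5p: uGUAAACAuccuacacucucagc
miR-30e-5p: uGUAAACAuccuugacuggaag
miR-494-3p: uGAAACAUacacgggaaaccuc
miR-21a-5p: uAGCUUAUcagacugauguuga
miR-22-3p: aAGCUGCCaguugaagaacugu
miR-192-5p: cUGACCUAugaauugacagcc
miR-194-5p: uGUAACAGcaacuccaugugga
miR-1224-5p: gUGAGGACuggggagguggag
miR-148a-3p: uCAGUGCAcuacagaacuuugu
The last set holds miR-721, which varied most among the animals, the steadier miR-130a-3p, which shares its seed AGUGCAA, and entries that carry runs of UG or AC.
miR-130a-3p: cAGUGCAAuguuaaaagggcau
miR-721: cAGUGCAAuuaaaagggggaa
miR-574-5p: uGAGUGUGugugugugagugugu
miR-1187: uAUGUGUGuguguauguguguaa
miR-669n: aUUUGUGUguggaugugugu
miR-467f: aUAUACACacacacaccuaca
miR-466i-3p: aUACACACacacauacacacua
Names without a match were used without a sequence, among them miR-122-5p, miR-126-3p, miR-5097, miR-30b-5p, miR-30d-5p, miR-23b-3p and all entries with a release suffix.

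A minority of the array was detected in every liver. The software detected between 170 entries in mouse 5 and 205 in mouse 1. In all, 160 entries were detected on all 5 arrays, 21 on 4, 4 on 3, 9 on 2 and 18 on 1, and 484 (69.5%) were detected on no array. Detection was thus mostly shared by all animals or by none, and the 52 entries in between had mean signals of at most 48.2. These means include the floor on arrays without detection, and single values could be higher. In mouse 1, miR-3099-3p was at 241 and miR-760-3p at 198. Entries seen on 4 arrays had a median signal of 13.9, against 78.0 for the entries seen on all 5, and the sets overlapped, since the dimmest entry seen on all 5 was at 9.16. Mice 1 and 5 accounted for most of the differences. Mouse 1 alone showed 13 of the 18 entries detected once, and mouse 5 alone lacked 13 of the 21 entries detected on 4 arrays.

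The summed signal was held by few entries. It came to 192040 in mouse 1, 202743 in mouse 2, 245386 in mouse 3, 195568 in mouse 4 and 181779 in mouse 5. Signals are given as read, and those called scaled were first brought to the same 75th percentile of entries detected on all arrays, which was highest on the array of mouse 3. The highest entry held 39.8% of the sum over the 5 mice, the 10 highest held 76.2% and the 20 highest 85.6%. Only 2 entries were needed to reach 50% of the sum, and 28 to reach 90%. The entries not detected on all arrays held 0.285% of the signal together.

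**Figure D1:**
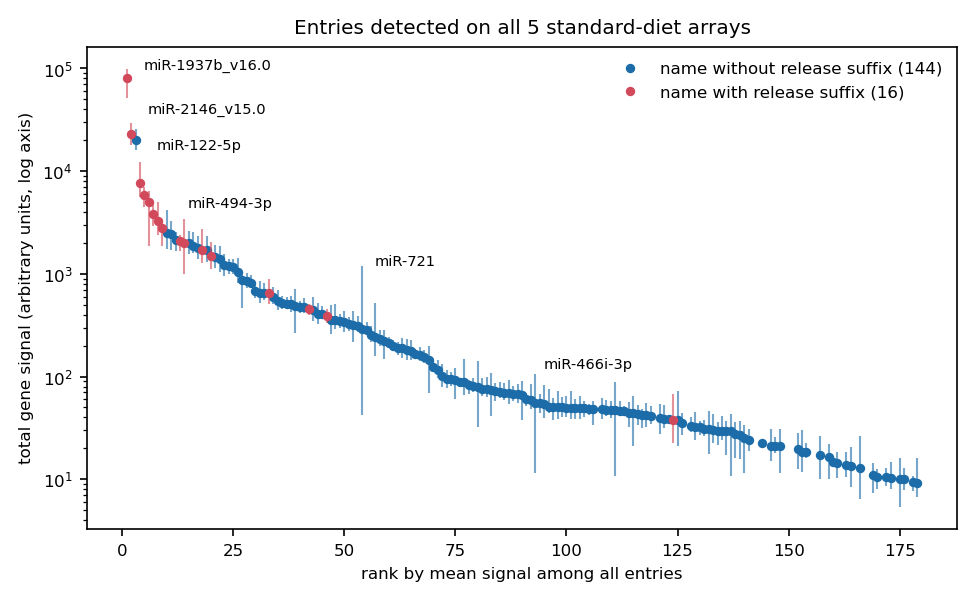
Total gene signal (log axis, arbitrary units) of the 160 entries detected on all 5 arrays, by rank. Points are means of 5 mice and lines run from the lowest to the highest mouse. miR-122-5p stands among entries with a release suffix at the top, and miR-721 and miR-466i-3p have long lines.

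Entries with a release suffix carried most of this signal. The 28 such entries, 16 of them detected on all arrays against 160 of all 696, held 69.3% of the summed signal, and their share ran from 61.6% to 74.4% between mice. miR-1937b_v16.0, known from general background as a fragment of a tRNA, was the highest on every array with signals of 69778, 99003, 96424, 87483 and 51931 in mice 1 to 5. Mice 5 and 1 were the low animals, also after scaling. miR-2146_v15.0 was second on every array, with 18407, 18087, 29558, 19429 and 28956, and mouse 5 was highest after scaling. miR-720_v18.0, listed as another such fragment, gave 6033, 6347, 4536, 6289 and 1884, so that mouse 5 lay far below the other 4.

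Grouped as lists, miR-1937b_v16.0, miR-1937c_v16.0, miR-720_v18.0 and miR-5097 were all detected on all arrays and held 44.0% of the signal, where 160 of all 696 entries were detected on all arrays. These 4 were listed as derived from tRNAs from general knowledge, and no sequence of theirs was read here. Of 12 entries numbered between miR-2132 and miR-2146, 10 were detected on all arrays, again beside 160 of all 696, and these 12 held 25.1%. Within the second list miR-2138_v15.0 gave 12193, 5557, 8001, 5980 and 6452, with mouse 1 highest. miR-2141_v15.0 had a mean of 5922, miR-2135_v15.0 of 3811, miR-2140_v15.0 of 3292, miR-2134_v15.0 of 2094, miR-2132_v15.0 of 2001, miR-2145_v16.0 of 1713 and miR-2133_v15.0 of 1505.

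Without the suffixed entries, the liver profile was led by miR-122-5p. It gave 16169, 16352, 25651, 18005 and 25165 in mice 1 to 5, and only miR-1937b_v16.0 and miR-2146_v15.0 were above it on every array. Mice 3 and 5 gave the high signals, and after scaling mouse 5 was highest and mouse 1 lowest. Among the 668 entries without a suffix it held 32.5% of the summed signal, with shares of 27.7% to 36.0% in single mice. Its mean was 8.11 times that of the next entry. The 10 highest of these entries held 60.2%, 7 entries reached 50% and 45 reached 90%. On each array 3 entries were always among the 5 highest, 9 among the 10 highest and 17 among the 20 highest.

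miR-21a-5p, a widely expressed miRNA that rises in liver injury, gave 1715, 2417, 3284, 2498 and 2223. Mouse 1 was lowest, and after scaling mice 2, 3 and 4 were about level at 2726, 2740 and 2778. miR-22-3p, which has roles in lipid metabolism, gave 2014, 1676, 2552, 1842 and 2532. miR-192-5p gave 1579, 1582, 2576, 1603 and 2041, and miR-194-5p gave 1010, 987, 1383, 1067 and 1328. In each of miR-22-3p, miR-192-5p and miR-194-5p, mice 3 and 5 gave the high signals, and after scaling mouse 5 was highest for miR-22-3p and miR-194-5p and mouse 3 for miR-192-5p. miR-494-3p stood second in this order with a mean of 2498, and its values were 4189, 1733, 2573, 1740 and 2254. That rank rested in part on mouse 1, since miR-494-3p exceeded miR-21a-5p in 2 of 5 mice only.

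The order below miR-122-5p was close. Its range did not overlap that of miR-494-3p, but each further neighbour in the first 20 overlapped the next. miR-21a-5p was above miR-22-3p in 3 of 5 mice, let-7a-5p above miR-192-5p in 3 and miR-29a-3p above let-7f-5p in 2. A few neighbours kept their order in all 5 mice despite the overlap, such as let-7f-5p over let-7c-5p and miR-30a-5p over miR-30c-5p. The last of the 20 was miR-148a-3p with a mean of 652. miR-1224-5p (mean 1395), released by splicing of a short intron, and miR-5097 (mean 865) were also among the 20. miR-1224-5p was highest in mouse 1 and miR-5097 was lowest in mouse 5.

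**Figure D2:**
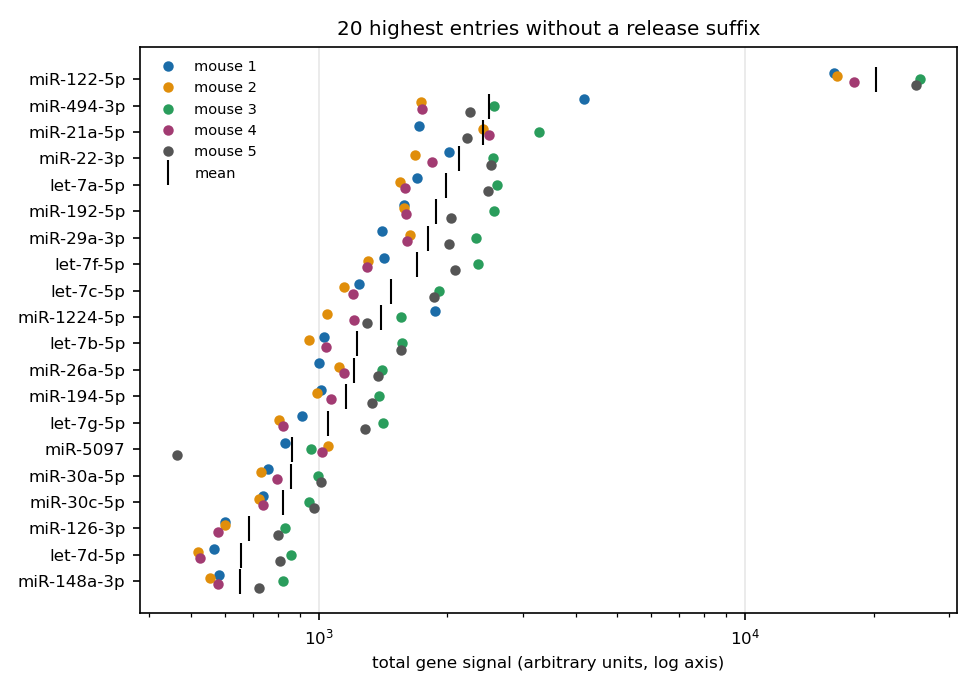
Total gene signal (log axis, arbitrary units) of the 20 highest entries without a release suffix, with 1 point per mouse and a bar at the mean, without scaling. miR-122-5p is apart from the rest, mice 3 and 5 lie to the right for most entries, and mouse 5 is far left for miR-5097.

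Matched entries were also summed by seed, a step that can only concentrate the signal. They held 60.9% of the signal of entries without a suffix, and miR-122-5p was not among them. The 542 matched entries had 453 different seeds, of which 92 had a member detected on all arrays and 15 had 2 or more. The seed GAGGUAG of let-7 summed to 7102, 6490, 11070, 6714 and 10436 in mice 1 to 5. Mice 3 and 5 again gave the high sums, which were not scaled. The first 5 seeds together held 48.2% of the signal of matched entries, and those of miR-494-3p, miR-21a-5p and miR-22-3p had 1 entry each. Of the 10 entries with the seed GAGGUAG 9 were detected on all arrays, against 160 of all 696, and only miR-1961 was detected on none. In the let-7 family, which restrains growth and keeps cells differentiated, let-7a-5p (1987), let-7f-5p (1693), let-7c-5p (1472), let-7b-5p (1227) and let-7g-5p (1047) had the highest mean signals, and let-7e-5p (59.0) and miR-98-5p (32.6) the lowest.

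The miR-29 seed came next with a sum of 2876, from miR-29a-3p (1800), miR-29c-3p (595) and miR-29b-3p (481). miR-29a-3p gave 1408, 1635, 2334, 1609 and 2016, with mouse 1 lowest, and after scaling mouse 5 was highest at 2039. The seed GUAAACA of miR-30 summed to 1895 over the matched members miR-30a-5p (858), miR-30c-5p (824) and miR-30e-5p (212), and miR-384-5p was detected on no array. Adding miR-30b-5p (516) and miR-30d-5p (167) and the 3p arms, the miR-30 list had 7 of 10 entries detected on all arrays, against 160 of all 696. miR-26a-5p (1206) and miR-26b-5p (547), regulators of the histone methyltransferase Ezh2, were both detected in every mouse. In the miR-192 and miR-215 pair, which share the seed UGACCUA, miR-192-5p was detected in all mice and miR-215-5p in none.

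Smaller families were also present, and their counts stand beside the 160 of all 696 entries that were detected on all arrays. In the miR-15/16 family, which limits cell cycle genes, 5 of 10 entries were detected on all arrays, led by miR-16-5p (443) and miR-15a-5p (355). The clusters of miR-23, miR-27 and miR-24 had 5 of 9 entries detected, led by miR-23b-3p (481) and miR-24-3p (406). Of the growth-promoting miR-17-92 cluster and its paralogs 9 of 20 entries were detected, with miR-19b-3p (198) and miR-92a-3p (188) highest, while miR-18a-5p and miR-363-3p were detected on no array. miR-107-3p (410) and miR-103-3p (256) were both detected, as were miR-101b-3p (284) and miR-101a-3p (125). The family of miR-148 and miR-152 had 3 of 4 entries detected, with miR-148a-3p giving 90.4% of its signal and miR-152-3p a mean of 50.4. In the miR-99/100 and miR-125 group 6 of 9 were detected, led by miR-125b-5p (508) and miR-99a-5p (176).

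In the family of miR-130 and miR-301, 1 of 5 entries was detected on all arrays, a share near the 160 of all 696. This was miR-130a-3p (509), and the other 4 entries were detected in no mouse. Among 7 entries of miR-10 and miR-196, which lie in the Hox clusters and follow body position, only miR-10a-5p (68.6) was detected in all mice, also a share near that of all entries. miR-10b-5p, miR-196a-5p and miR-196b-5p were detected on no array.

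Of the lists of cell type markers, that of hepatocytes had the highest summed signal, most of it from miR-122-5p, in this tissue labeled as liver. The list had 5 of 6 entries detected on all arrays, against 160 of all 696, and a summed signal of 19393, 19503, 30479, 21286 and 29296 in mice 1 to 5. Its members were miR-122-5p, with 84.5% of the sum, miR-192-5p, miR-194-5p, miR-148a-3p and the dim miR-802-5p (39.4), and miR-148a-5p was not detected. In these whole-liver samples, fewer cells of a type and less RNA per cell cannot be told apart. Endothelial miR-126-3p, from an intron of Egfl7, gave 602, 603, 832, 578 and 803, and mouse 5 was highest after scaling.

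The leukocyte and Kupffer cell list had 4 of 11 entries (36.4%) detected on all arrays, a share not far from the 160 of all 696, and its summed signal was 247, 220, 307, 169 and 261. Its highest member, the myeloid miR-223-3p, gave 41.3, 83.1, 108, 73.9 and 60.8, with mouse 1 lowest, and after scaling mouse 2 was highest at 93.7. miR-342-3p had a mean of 50.5, miR-146a-5p of 43.8 and miR-142-3p of 43.3, while lymphocyte miR-150-5p was detected in mice 1, 3 and 5 only. The red cell miRNA miR-451a, which is matured by Ago2 without Dicer, gave 657, 265, 711, 405 and 408. Mice 1 and 3 were high for miR-451a, and its partner miR-144-3p was detected in those same 2 mice alone, at 23.8 and 15.9.

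Of the mesenchymal and stellate cell list 4 of 8 entries were detected on all arrays, against 160 of all 696, with a sum of 192, 207, 243, 183 and 181. miR-199a-3p had a mean of 75.4 and miR-143-3p of 46.0, and miR-214-3p was detected in 3 mice. In the epithelial list, which includes markers of bile duct cells, 2 of 12 entries (16.7%) were detected on all arrays, a share near that of all 696 entries. These were miR-203-3p with a mean of 69.7 and miR-200b-3p with 10.3. miR-200c-3p, miR-141-3p and miR-429-3p were detected on no array.

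Nearly all entries listed for other tissues were not detected, which does not show that these miRNAs were absent. Across 6 lists for neuron, striated muscle, pluripotent cell, pancreas, male germ cell and sensory organ, 83 of 84 entries were detected on no array, against 69.5% of all 696 entries. The lists held 10, 9, 22, 4, 32 and 7 entries in that order, and none of their entries was detected on all arrays. Entries at the floor included miR-124-3p of neurons, miR-133a-3p of muscle, miR-216a-5p of pancreas, miR-34b-3p of germ cells and miR-182-5p of sensory organs. The exception was miR-290-5p, from a cluster of early embryonic cells, which gave 21.0, 32.7, 33.2 and 21.7 in mice 1 to 4 and was not detected in mouse 5.

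**Figure D3:**
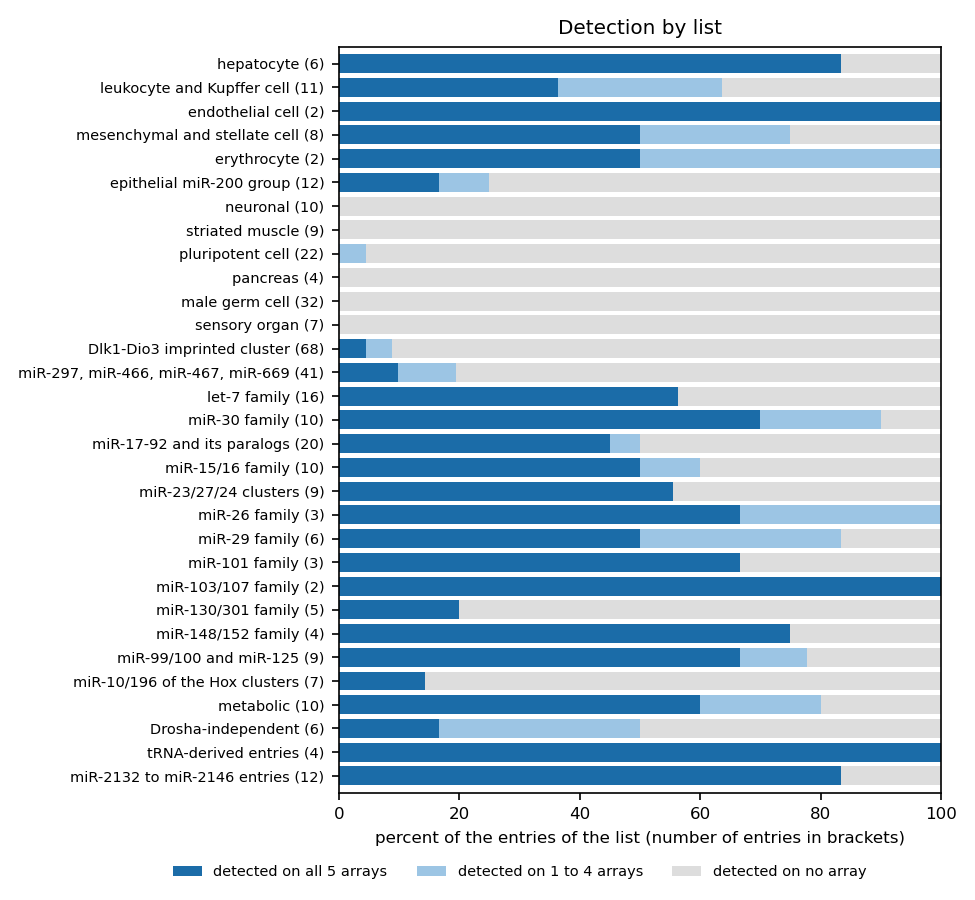
Percent of the entries of each list that were detected on all 5, on 1 to 4 or on no array, with the number of entries in brackets. The hepatocyte list reaches 83.3% on all arrays, and 5 of the 6 lists of other tissues are grey throughout.

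In the 10 entries chosen for metabolism, 6 were detected on all arrays, against 160 of all 696. After miR-21a-5p and miR-22-3p these were miR-378a-3p (310), hosted by Ppargc1b, miR-34a-5p (66.6), which p53 induces, and the dimmer miR-22-5p (49.6) and miR-802-5p. miR-33-5p, which lies in Srebf2 and limits cholesterol export, was detected on no array. miR-34a-5p gave 74.3, 49.1, 91.2, 37.9 and 80.6, so that mice 1, 3 and 5 were high. Among 6 entries made without Drosha, miR-1224-5p was detected on all arrays, a share near that of all entries, miR-877-5p and miR-320-3p on 4, and miR-484 on none.

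Most of the entries listed for the imprinted Dlk1-Dio3 cluster were not detected. Of the 68 in the list 62 were detected on no array, against 484 of all 696, and 3 on all, against 160 of all 696, namely miR-494-3p, miR-370-3p (32.1) and miR-770-3p (9.43). miR-494-3p supplied 97.4% of the signal of the list. On chromosome 12 of RefSeq, 50 matched entries from 37 hairpins follow each other on 1 strand with gaps of at most 10000 bases, and 47 of them were detected on no array. Only miR-494-3p and miR-3072-5p (82.3) of this stretch were detected in every mouse, and miR-3072-5p was not in the list, so the list does not hold the whole cluster. The hairpins of this region are maternally expressed, mainly in embryo, placenta and brain.

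By the same rule 30 groups of 2 or more neighbouring hairpins had an entry detected on all arrays, and 20 had 2 or more. The brightest entry held at least 27.5% of the signal of its group, and over 90% in 9 of the 30. let-7a-5p, let-7f-5p and let-7d-5p lie together on chromosome 13 and had means of 1987, 1693 and 657. miR-192-5p and miR-194-5p share a cluster on chromosome 19, with 61.9% of their sum from miR-192-5p. The group on chromosome 14 with miR-17, miR-18a, miR-19a, miR-20a, miR-19b and miR-92a had 5 of 9 entries detected on all arrays, against 160 of all 696. A mature miRNA can come from more than 1 hairpin, and let-7f-5p also matched a hairpin beside miR-98 on chromosome X.

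Pairs of arms were matched by the same name, which gave 157 hairpins. In 58 of them the brighter arm was detected on all arrays, and the 5p arm was higher in every mouse in 30, the 3p arm in 24 and neither in 4. The 5p arms gave 53.4%, 55.2%, 56.1%, 55.4% and 55.1% of the signal of these hairpins in mice 1 to 5. This share depended on the matching, which left out names whose arms differ by a copy number, such as let-7a-5p and let-7a-1-3p. With those joined, an alternative chosen after seeing the data, there were 174 pairs, the 5p arm was higher in every mouse in 37 and the 3p arm in 29, and the 5p arms gave 62.8% to 66.0% of the signal. Both ways left out names without a partner arm on the array, among them miR-122-5p with a mean of 20268. These shares thus do not count the highest entry without a release suffix. For 24 hairpins the 5p arm was detected on all arrays and the 3p arm on none, as for let-7b, let-7g and let-7d. For 13 hairpins the 3p arm was detected on all arrays and the 5p arm on none, as for miR-29a and miR-148a. At 88 hairpins neither arm was detected on any array.

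Only 12 hairpins had both arms detected in all mice, and the 5p arm was higher in every mouse in 2 of these and the 3p arm in 6. miR-22 leaned most to the 3p arm, with log2 of 5p over 3p of -5.70, -5.28, -5.15, -5.47 and -5.59. miR-30a leaned most to the 5p arm, with values between 3.89 and 4.11. miR-126 gave -3.62, -3.74, -3.93, -3.78 and -3.93. The SDs of these 3 ratios between animals were 0.22, 0.09 and 0.13. miR-193a (mean -5.04) also favored 3p and miR-30e (mean 3.37) 5p. In the first 10 hairpins by signal, miR-21a-3p was detected on 4 arrays beside a mean of 2427 for miR-21a-5p, and miR-29c-5p on 2 beside 595 for miR-29c-3p.

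Of the 12, the 5 hairpins with a mean log2 ratio nearest 0 were miR-139, miR-125a, miR-17, miR-1897 and miR-199a. For miR-139 the log2 ratio averaged 0.11 (SD 0.22, n = 5) and the 5p arm was higher in 4 of 5 mice. miR-17 averaged -0.46, miR-1897 averaged -0.94 and miR-199a averaged -1.33, with 3p higher in every mouse for miR-199a. miR-125a gave -0.44, -0.62, -0.62, -0.34 and 0.56, so that 3p led in mice 1 to 4 and 5p in mouse 5. miR-125a-5p was 44.1 to 44.7 in mice 1 to 4 and 76.1 in mouse 5. The animals did not differ in miR-125a-3p to that extent (51.7 to 68.7), but mouse 5 was the lowest at 51.7. The ratio of mouse 5 thus reflects both arms.

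**Figure D4:**
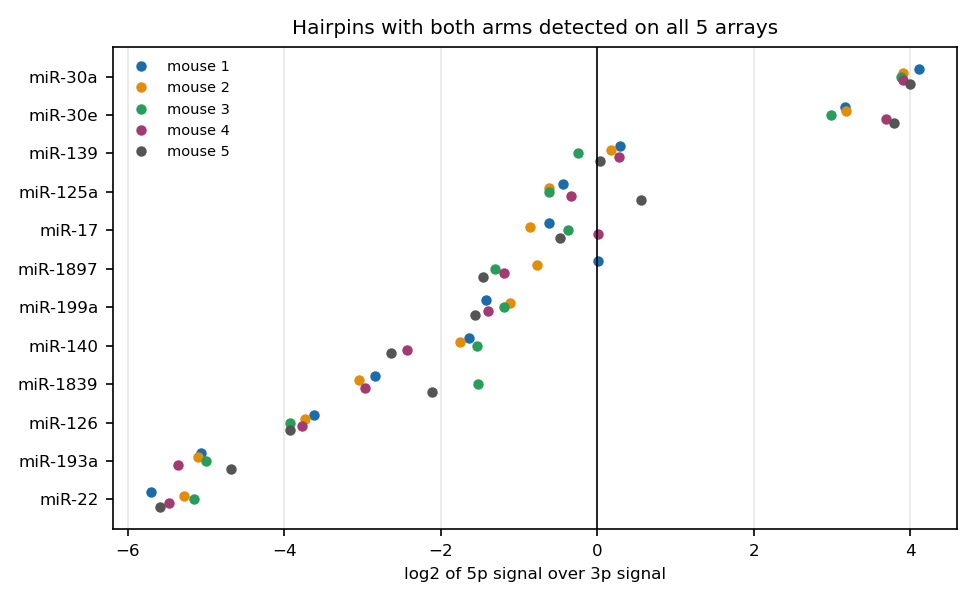
Log2 of the 5p signal over the 3p signal for the 12 hairpins with both arms detected on all arrays, with 1 point per mouse and a line at equal signal. Ratios run from -5.70 for miR-22 to 4.11 for miR-30a, and 4 hairpins have points on both sides of 0.

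Animals were compared after the 75th percentile of the 160 entries detected on all arrays had been made equal. Before that step, the percentile was 487, 420, 568, 426 and 469 in mice 1 to 5. The SD of the scaled log2 signal had a median of 0.23, a 1.17-fold step, and its middle part ran from 0.16 to 0.38. For comparison, the spots of a probe on 1 array had a median coefficient of variation of 6.83% to 9.89%, and the software's own error was 8.19% to 9.18% of the signal. Both describe the spread within an array. With 1 array per mouse, differences between animals cannot be told apart from differences in RNA preparation, labeling or hybridization. In 60 of the 160 entries the SD was under 0.2, and in 19 it was over 0.5. With the 160 entries put in 4 sets of 40 by signal, the median SD was 0.33 in the dimmest set, 0.23 and 0.18 in the middle sets and 0.24 in the brightest.

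The steadiest entries were miR-148b-3p (SD 0.045), miR-151-5p (0.082), miR-370-3p (0.088), miR-101a-3p (0.093) and miR-126-5p (0.094). The scaled signals of miR-148b-3p were 17.9, 18.1, 18.9, 19.3 and 18.3. Family medians were 0.16 for miR-30, 0.17 for miR-17-92 and its paralogs, 0.19 for the hepatocyte list and 0.26 for let-7. The entries listed as derived from tRNAs had 0.48, and the 4 detected entries of the miR-297, miR-466, miR-467 and miR-669 names had 0.99.

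miR-721 varied most, with an SD of 1.92. Its signals were 1201, 77.5, 84.0, 54.9 and 42.2. Mouse 1 was far above the other 4, and without it the mean of 292 became 64.7 and the SD 0.43. miR-130a-3p, with the same seed, gave 451, 458, 581, 458 and 598, so mouse 1 was not high for its seed partner. miR-690 was also highest in mouse 1, with 519, 161, 201, 158 and 187, and its SD of 0.67 became 0.08 without mouse 1 (this miRNA was chosen after its values were seen). miR-3099-3p, likewise chosen afterwards, was detected in mouse 1 alone, at 241.

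The next entries were low in mouse 5. miR-466i-3p (SD 1.21) gave 106, 45.2, 47.2, 69.0 and 11.6, and miR-466f-3p (SD 1.16) gave 89.3, 39.3, 39.2, 57.9 and 10.8. miR-669n (SD 0.82) gave 43.2, 25.3, 27.6, 39.7 and 10.8. In all 3 mouse 5 was lowest and mice 1 and 4 were highest, and without mouse 5 their SDs became 0.61, 0.62 and 0.45. These entries and miR-467f are the 4 of 41 detected on all arrays, against 160 of all 696, in a list of names miR-297, miR-466, miR-467 and miR-669. Many such names belong to a cluster in an intron of Sfmbt2, but RefSeq placed miR-467f on chromosome 11, miR-466i-3p on 13 and miR-669n on 3. The list summed to 475, 204, 209, 290 and 69.3. miR-720_v18.0 had an SD of 0.81, or 0.43 without mouse 5.

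Several of these entries hold short repeats. All matched sequences were searched for UGUGUG and for ACACAC as written, on the strand of the miRNA, because of the sequences of these entries and after their values were seen, so the counts describe and test nothing. The first motif was in 12 of 542 (2.21%) and the second in 7 (1.29%). Of the 19 entries with either, 6 were detected on all arrays, beside 116 of the 523 with neither. The 6 were let-7b-5p, miR-574-5p, miR-1187, miR-467f, miR-466i-3p and miR-669n. miR-574-5p, whose sequence is mostly UG, gave 285, 178, 219, 284 and 148. A set of 10 bright corner control spots gave medians from 46.7 to 325, with mouse 5 lowest and mouse 4 highest. Mouse 1, highest for miR-466i-3p, miR-466f-3p and miR-467f, was below mice 2 and 3 in these spots at 133, and let-7b-5p was highest in mouse 5 after scaling. Other bright control spots differed in direction. Mouse 5 was highest for those named hur_1 at 60841 and hur_6 at 22306, and lowest for hur_2 at 79644. What the control spots measure is not given in the sources used here, and their part in the result was not tested.

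Over all 160 entries, mouse 5 was highest after scaling in 73 and lowest in 30, and mouse 1 was lowest in 75 and highest in 34. Mice 2, 3 and 4 were closer to the middle, with a median distance from the entry's median of 0.06, 0.08 and 0.05 in log2, against 0.24 in mouse 1 and 0.22 in mouse 5. Pearson's r across the 160 entries, which do not count as replicates, ran between pairs of mice from 0.954 (mice 1 and 5) to 0.994 (mice 2 and 3, and mice 2 and 4). Mice 1 and 5 differed by over 1 in log2 in 16 entries, and mice 2 and 3 in 0.

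**Figure D5:**
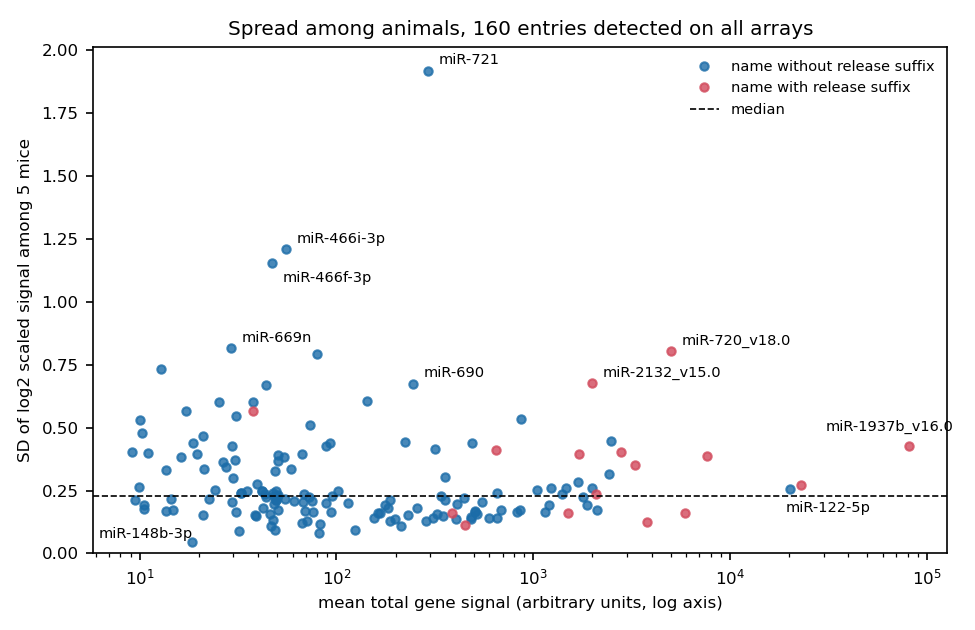
SD of the scaled log2 signal among 5 mice against the mean signal (log axis, arbitrary units) for the 160 entries detected on all arrays, with a dashed line at the median of 0.23. miR-721 lies highest at 1.92, then miR-466i-3p and miR-466f-3p, and miR-122-5p is near the median.

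Detected and undetected miRNAs had the same median GC content and length, and a larger share of the detected began with U. These differences were not tested, and members of a family are not independent. Among entries without a suffix, 122 of the 144 detected on all arrays and 387 of the 473 detected on none had a RefSeq sequence. The median GC content was 47.6% in both sets and the median length 22 bases. The first base was U in 61 of the 122 and in 146 of the 387 (37.7%), and it was C in 12.3% and 19.9%.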

How the data were processed

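Per the file headers, the authors scanned 1-color arrays and read them with Feature Extraction 11.5.1.1 (array annotation mm9). The intensity values they deposited were background-subtracted by the software and not normalized between arrays. A score per spot was deposited by the authors as well, and on these 5 arrays it equaled the z-score of the natural log of the median spot signal over all 14635 spots, to within 0.0005. The scale and centring of the score are therefore known, and its median was -0.313 to -0.295.

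Groups came from the sample titles. Control spots were left out and entries were taken by their systematic name. The total gene signal and the detection call of the software were used as given, without a test, because no groups were compared. For the spread among animals, arrays were scaled to the 75th percentile of entries detected on all 5 arrays, and log2 was taken. The number of arrays limits the precision. Outlier spots, 321 to 717 per array, were left to the software, with an alternative that drops them. The alternatives were other detection rules, other signals per miRNA, other scalings, entries without a suffix, and leaving out each mouse.

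Named miRNAs are the 20 highest of all entries and of those without a suffix, the 5 most and 5 least variable, the 10 brightest hairpins, the 5 hairpins nearest balance with both arms detected, and the 2 highest of each list. Other members and chromosomal neighbours are given as examples or counts chosen after their values were seen. The members and lists were chosen with earlier results of these data known. Calculations were tested on simulated data. Python 3.11.15, numpy 2.4.6, pandas 2.3.3 and matplotlib 3.10.9 were used. Sequences are those of RefSeq, and coordinates are left out, the array annotation being of a different build. The other 10 arrays were not used.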

Additional observations from a re-analysis of the deposited data

Results flagged for a closer look

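In 5 of 124 groups of 5 values, all taken without scaling, 1 mouse stood apart from the other 4 by most of the whole range. Chance alone gives this in about 1 of 20 groups. That rate does not hold for miRNAs named for their large or small spread, such as miR-721. Signals without scaling also carry the brightness of their array, which differed between mice. The count therefore does not show whether mice stood apart more often than by chance. The values tested were the signals of named miRNAs, log2 ratios of arms, sums of lists, array totals and control spots. miR-721 was at 1201 in mouse 1, and miR-125a-5p was at 76.1 in mouse 5. The log2 ratio of 5p over 3p for miR-125a, which holds the same high value, was 0.56 in mouse 5. miR-101b-3p was at 341 in mouse 3, and the miR-101 family, which it leads, summed to 485 in that mouse. These values are not scaled, and the array of mouse 3 was the brightest by its 75th percentile. After scaling, mouse 3 was between the other mice at 285 for miR-101b-3p and 405 for the family. miR-721 still stood apart in mouse 1 at 1170, while miR-125a-5p was highest in mouse 5 at 77.0 but no longer apart by the same limit. Only flagged items were set against the limit again after scaling, so no count on scaled values is given. Other named miRNAs, picked after their values were seen and not set against the limit, were also high in mouse 1 after scaling. miR-2138_v15.0 was at 11876 in mouse 1, against 6267 to 6675 in the other mice. miR-494-3p was at 4081 in mouse 1, against 1935 to 2280.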

How the results depend on the processing

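Of 122 values under other settings, 111 stayed within the limit for their kind, and 11 did not. The limit was 1.5 times for a count and the SD between mice for a share. For the median SD it was 0.03, the SD of the values with each mouse left out. Without suffixed entries the share of the highest entry counted as kept at 32.5%, though that entry was miR-122-5p in place of miR-1937b_v16.0. Without suffixed entries the 10 highest held 60.2% in place of 76.2%, 7 entries in place of 2 reached 50% of the signal, and 8 of the 20 highest were kept. These differences follow from dropping bright entries. Requiring both arms on all arrays left 2 hairpins with the 5p arm higher and 6 with the 3p arm higher, since few hairpins qualified. Joining names that differ by a copy number gave 37 and 29. The median SD of 0.23 became 0.31 without scaling, 0.28 after division by the summed signal and 0.08 with z-scores of signals that still hold the background, and it ran from 0.18 to 0.25 when each mouse was left out. The cause of the differences in SD was not tested. Detection on 3 or more arrays gave 185 entries in place of 160 and changed the count in 11 of 31 lists, among them the pluripotent list (1 in place of 0) and the list made without Drosha (3 in place of 1). With over 50% of spots well above background, 110 entries were detected on all arrays. Chosen after seeing the data, the share of miR-122-5p among entries without a suffix ran from 31.4% to 33.6% over its alternatives. No paired analysis was possible because only 1 group was used. Signals near the lowest detected values limit what can be said of dim entries.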

Other observations

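In 2 pairs of neighbouring hairpins chosen after their values were seen, 1 partner was detected in every mouse and the other in none. miR-212-3p gave 198, 155, 140, 156 and 69.8, with mouse 5 lowest, while miR-132-3p stayed at the floor. miR-425-5p gave 24.1, 24.2, 36.9, 15.8 and 32.7, while miR-191-5p stayed at the floor.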
